A study of Rattus norvegicus with 10 samples.

Results

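The genes described are 10 markers of kidney tubule injury and failed repair, taken by symbol from a table of 32545 genes: *Havcr1*, *Lcn2*, *Spp1*, *Clu*, *Gdf15*, *Vcam1*, *Cd44*, *Sox9*, *Cdkn1a* and *Vim*. Each symbol occurs once in the table, and all 10 genes passed the filter on low values, a mean of at least 0.1 FPKM (fragments per kilobase of gene and unit of sequencing depth). The rule that picks them uses their symbols alone.

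When the proximal tubule of the kidney is injured, surviving epithelial cells lose their differentiated features and raise a set of genes. Healthy tubules keep many but not all of these low. Some of these encode secreted or shed proteins that are followed in urine as signs of injury, others encode adhesion proteins, and others control the cell cycle, the cytoskeleton or the fate of the cell. Repair normally lowers the set again, whereas cells that fail to repair keep adhesion and inflammatory genes on. In polycystic kidneys the epithelium that lines cysts, the tubules pressed beside them and the infiltrating cells between them are all possible sources of these transcripts.

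The RNA came from the renal cortex of PCK rats, 5 males and 5 females, each sequenced as 1 library. PCK rats (PCK/CrljCrl-Pkhd1pck/Crl) carry a mutation of *Pkhd1*, the gene of human autosomal recessive polycystic kidney disease, so every rat of both groups had the mutation, and no rat without it is analysed here. The rats received no treatment that the labels name. By the study's account the rats came from 2 litters that had different parents. Their age was 10 to 12 weeks in the study's methods and 12 to 14 weeks in the labels. The labels do not say which rat came from which litter, so litter could not be used. Differences between litters thus cannot be told apart from the spread between rats. The kidneys were flushed with buffered saline before the cortex was frozen. The comparison made is female against male.

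Whole reads recovered from the FPKM summed to between 13912569 and 20285911 per library. Between 14.3% and 26.8% of these fell on mitochondrial genes, with the highest share in female 2. The labels give no batch. Markers of the proximal tubule, the main tubule segment of cortex, summed to between 2235 and 3997 FPKM per rat, and *Slc34a1*, its phosphate transporter, averaged 1257 FPKM. Whole cortex was sequenced, so that fewer cells of a type and less RNA per cell cannot be told apart in any value given here.

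The 10 genes spanned a wide range of expression. *Spp1* averaged 4026 FPKM over the 10 rats and ranked 11 among 17631 genes by mean FPKM, taking between 0.122% and 1.14% of the reads of a library. *Clu* averaged 594 FPKM and *Vim* 113 FPKM. *Gdf15*, *Lcn2* and *Havcr1* followed at 73.4, 52.4 and 38.4 FPKM. The lowest 4 were *Cd44*, *Sox9*, *Cdkn1a* and *Vcam1*, at 11.9, 10.9, 9.17 and 7.56 FPKM. FPKM is divided by gene length, so these levels are comparable between genes. *Spp1* was above *Clu*, *Clu* above *Vim* and *Havcr1* above *Cd44* in 10 of 10 rats. Among the other neighbours in this order, between 6 and 9 of 10 rats kept it, and only *Clu* and *Vim* had ranges over all rats that did not overlap. The order among *Cd44*, *Sox9*, *Cdkn1a* and *Vcam1* is thus not fixed beyond the spread between rats.

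**Figure D1:**
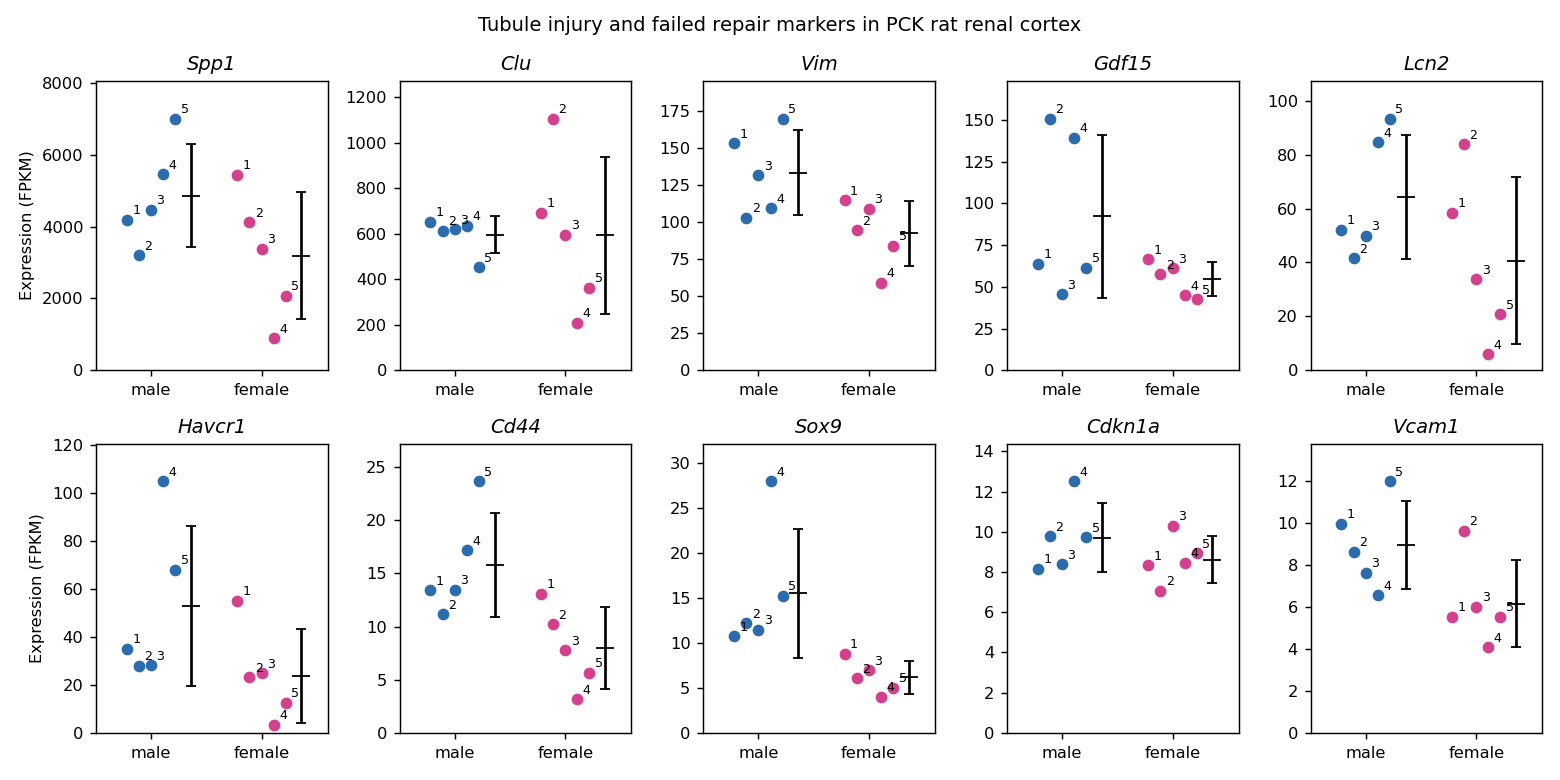
FPKM of each of the 10 genes in each rat, 1 panel per gene, with a linear vertical axis from 0 in every panel. Points are single rats numbered as in the labels, and bars are the mean and SD of 5 males and of 5 females. The ranges of the sexes do not overlap for *Sox9*, and female 4 is the lowest point for 8 genes.

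*Havcr1* (ENSRNOG00000007243, chromosome 10, 31813814 to 31848379 of build Rnor_6.0, as for the positions that follow), which encodes the phosphatidylserine receptor that injured proximal tubule cells put on their surface and shed into urine, varied most of the 10 genes. Males 1 to 5 had 35.2, 28.0, 28.3, 105 and 68.1 FPKM. Females 1 to 5 had 55.2, 23.4, 24.8, 3.38 and 12.6 FPKM. Males 4 and 5 were the highest, female 1 lay within the male range, and females 2 to 5 were below every male. The means were 52.9 ± 33.5 FPKM for males and 23.9 ± 19.5 FPKM for females (SD, n = 5 each). The difference did not pass (two-sided exact permutation test, as for all such tests here, p = 0.127), with a log2 fold change of -1.43 (SE 0.65, 95% interval -2.87 to 0.01, limma adjusted p = 0.321). Leaving out 1 rat at a time gave exact permutation p-values from 0.0476 without female 1 to 0.254 without female 4. The log2 fold change ran from -1.85 without female 1 to -0.86 without female 4. Without male 4 the difference in means went from -29.0 to -16.0 FPKM.

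*Lcn2* (ENSRNOG00000013973, chromosome 3, 11414186 to 11417546) encodes lipocalin 2, a siderophore-binding protein made by injured distal tubules and by neutrophils. It was at 52.1, 41.7, 49.9, 84.6 and 93.3 FPKM in males 1 to 5. In females 1 to 5 it was at 58.5, 83.9, 33.9, 5.85 and 20.8 FPKM. Female 2 was nearly as high as male 4, and females 3, 4 and 5 lay below every male. The means were 64.3 ± 23.0 and 40.6 ± 31.0 FPKM (SD, n = 5 each), and the log2 fold change was -1.08 (SE 0.60, 95% interval -2.40 to 0.25). Neither test passed (exact permutation test, p = 0.198, limma adjusted p = 0.433). With 1 rat left out, the log2 fold change ran from -1.46 without female 2 to -0.50 without female 4.

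*Spp1* (ENSRNOG00000043451, chromosome 14, 6673686 to 6679901) encodes osteopontin, a secreted ligand of integrins and of CD44. Males 1 to 5 had 4196, 3201, 4468, 5465 and 7007 FPKM. Females 1 to 5 had 5453, 4117, 3388, 888 and 2079 FPKM. Female 1 was as high as male 4, whereas females 4 and 5 were below all males. The means were 4867 ± 1442 FPKM in males and 3185 ± 1771 FPKM in females (SD, n = 5 each), with a log2 fold change of -0.81 (SE 0.45, 95% interval -1.81 to 0.19). The difference did not pass (exact permutation test, p = 0.143, limma adjusted p = 0.435). With 1 rat left out, the log2 fold change ran from -1.06 without female 1 to -0.41 without female 4.

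*Clu* (ENSRNOG00000016460, chromosome 15, 42640146 to 42665857), the gene of the secreted chaperone clusterin, had almost equal means in the sexes and unequal spreads. It was at 653, 613, 620, 635 and 452 FPKM in males 1 to 5, and at 693, 1106, 595, 208 and 363 FPKM in females 1 to 5. Both the highest and the lowest values belonged to females, which thus enclosed the whole male range. The means were 595 ± 81.2 and 593 ± 344 FPKM (SD, n = 5 each; exact permutation test, p = 1). On the log2 scale the difference was -0.21 (SE 0.37, 95% interval -1.02 to 0.60, limma adjusted p = 0.843). It was 0.11 without female 4 and -0.49 without female 2. The near equality of the means rests on female 2, without which the female mean was 465 FPKM.

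*Gdf15* (ENSRNOG00000019661, chromosome 16, 20555395 to 20557978) encodes a circulating member of the TGF-beta superfamily that cells release under stress. Males 1 to 5 had 63.8, 151, 45.6, 139 and 61.4 FPKM. Females 1 to 5 had 66.6, 57.7, 61.1, 45.1 and 42.7 FPKM. Males 2 and 4 stood above every other rat, and the other 3 males were within the narrow female range. The SD of the log2 values was 0.77 in males and 0.28 in females. The means were 92.2 ± 48.9 and 54.6 ± 10.3 FPKM (SD, n = 5 each; exact permutation test, p = 0.143), with a log2 fold change of -0.61 (SE 0.32, 95% interval -1.31 to 0.09, limma adjusted p = 0.391). Leaving out 1 rat at a time gave exact permutation p-values from 0.0317 without male 3 to 0.294 without female 5, and the former was the only 1 of the 10 to pass. Without male 2 the log2 fold change was -0.39 and the difference in means went from -37.5 to -22.9 FPKM. *Gfral*, the receptor of this ligand in the brainstem, had 0 reads in all 10 libraries, where the limit of detection was set at 3 reads.

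*Cd44* (ENSRNOG00000006094, chromosome 3, 92696313 to 92783658), which encodes the hyaluronan receptor, also a receptor of osteopontin, was at 13.4, 11.2, 13.5, 17.2 and 23.6 FPKM in males 1 to 5. In females 1 to 5 it was at 13.1, 10.2, 7.77, 3.19 and 5.66 FPKM. Only female 1 reached into the male range, and females 2 to 5 were below every male. The means were 15.8 ± 4.90 FPKM in males and 7.98 ± 3.85 FPKM in females (SD, n = 5 each), a difference that passed the exact permutation test (p = 0.0159). With a log2 fold change of -1.08 (SE 0.34, 95% interval -1.83 to -0.33), the adjusted p over all genes was 0.143 in limma, so *Cd44* was not called. Leaving out any 1 rat gave exact permutation p-values between 0.0159 and 0.0397.

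*Vcam1* (ENSRNOG00000014333, chromosome 2, 219071193 to 219097619) encodes the adhesion molecule that binds leukocyte integrins and marks tubule cells that failed to repair, and endothelium also makes it. Males 1 to 5 had 9.98, 8.64, 7.64, 6.56 and 12.0 FPKM. Females 1 to 5 had 5.55, 9.64, 6.02, 4.09 and 5.53 FPKM. Female 2 lay within the male range, and the other 4 females were below every male. The means were 8.96 ± 2.11 and 6.17 ± 2.07 FPKM (SD, n = 5 each), with a log2 fold change of -0.56 (SE 0.22, 95% interval -1.04 to -0.07). The difference did not pass (exact permutation test, p = 0.0635, limma adjusted p = 0.243). With 1 rat left out, the exact permutation test passed in 2 of 10 cases, without female 2 (p = 0.0159) and without male 4 (p = 0.0397), and p was otherwise as high as 0.135.

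*Sox9* (ENSRNOG00000002607, chromosome 10, 101288489 to 101293379), the gene of a transcription factor that regenerating tubule cells switch on, was the only 1 of the 10 genes called lower in females. Males 1 to 5 had 10.8, 12.2, 11.5, 28.0 and 15.3 FPKM. Females 1 to 5 had 8.80, 6.06, 6.95, 4.03 and 5.05 FPKM. Every male was above every female, and male 4 was far above the other males. The means were 15.5 ± 7.16 FPKM in males and 6.18 ± 1.83 FPKM in females (SD, n = 5 each), and the log2 fold change was -1.27 (SE 0.27, 95% interval -1.87 to -0.67). The exact permutation p was 0.00794, the smallest that 252 splits of the rats can give, and the limma adjusted p was 0.0359. Leaving out 1 rat at a time gave adjusted p-values of 0.0323 to 0.105 in limma and lost the call in 7 of 10 cases, whereas the exact permutation p stayed between 0.00794 and 0.0238.

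*Vim* (ENSRNOG00000018087, chromosome 17, 80882666 to 80891212) encodes vimentin, the intermediate filament of mesenchymal cells, which dedifferentiated tubule cells take up. It was at 153, 103, 132, 110 and 170 FPKM in males 1 to 5 and at 115, 94.6, 109, 59.2 and 84.0 FPKM in females 1 to 5. Males 1, 3 and 5 were above all females, and the other 2 males overlapped females 1 and 3. The means were 134 ± 28.4 and 92.4 ± 22.1 FPKM (SD, n = 5 each; exact permutation test, p = 0.0397), with a log2 fold change of -0.54 (SE 0.20, 95% interval -0.97 to -0.11, limma adjusted p = 0.200). The exact permutation p rose to as much as 0.0794 when 1 rat was left out, and it was above 0.05 in 6 of 10 cases.

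*Cdkn1a* (ENSRNOG00000000521, chromosome 20, 6351458 to 6358864), which encodes the cell cycle inhibitor p21, a target of p53, was the steadiest of the 10 genes. Males 1 to 5 had 8.17, 9.77, 8.40, 12.5 and 9.72 FPKM, and females 1 to 5 had 8.34, 7.06, 10.3, 8.46 and 8.92 FPKM. The highest value was that of male 4 and the lowest that of female 2, with the sexes mixed between them. The means were 9.71 ± 1.72 and 8.62 ± 1.17 FPKM (SD, n = 5 each; exact permutation test, p = 0.294), with a log2 fold change of -0.16 (SE 0.13, 95% interval -0.46 to 0.13, limma adjusted p = 0.615). It was -0.07 without male 4 and -0.10 without female 2.

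Read together, all 10 genes had a log2 fold change below 0 in females, beside 51.2% of the 17631 genes tested. Their median log2 fold change was -0.71, beside -0.01 over all genes tested. *Clu* was the only gene of the 10 whose direction turned when 1 rat was left out. Pairs of these genes were correlated among rats, so they are not 10 independent observations of a direction. An unadjusted limma p under 0.05 with a lower female level was found for 4 genes, beside 8.07% of all genes, and an exact permutation p of at most 0.05 for 3 genes, beside 7.38%. *Sox9* alone passed both thresholds of the study, which are 0.05 for the adjusted p and 1 for the size of the log2 fold change. Over all genes this share was 1.32%, of which 0.698% lower and 0.618% higher in females. *Sox9* was also the only gene of the 10 called by the adjusted p alone, which called 2.4% of all genes, 1.14% lower and 1.26% higher in females, and the only 1 without overlap between the sexes, a pattern of 5.1% of all genes in either direction and of 2.6% with females lower.

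**Figure D2:**
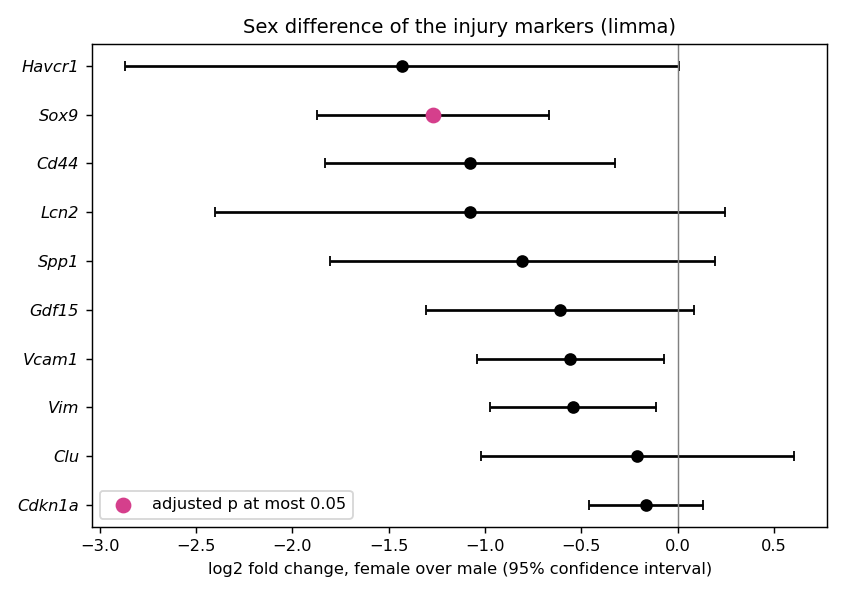
Log2 fold change of female over male on the log2(FPKM + 0.1) scale for the 10 genes, ordered by size, with points for the limma estimate, bars for its 95% interval, a grey line at 0 and colour for an adjusted p of at most 0.05. All 10 points are below 0, and the intervals of *Sox9*, *Cd44*, *Vcam1* and *Vim* do not reach 0.

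The same rats were high or low for most of the genes. Male 5 was the highest rat for 5 genes and male 4 for 3, while male 2 led for *Gdf15* and female 2 for *Clu*. Female 4 was the lowest rat for 8 genes and among the lowest 2 for 9, and female 5 was also among the lowest 2 for 9. Measured from the mean of its own sex, female 4 lay on average 1.06 log2 units lower over the 10 genes (mean deviation -1.06), whereas female 1 had a mean deviation of 0.61 and female 2 of 0.48. Among males, the mean deviation was 0.36 in male 4 and 0.25 in male 5.

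**Figure D3:**
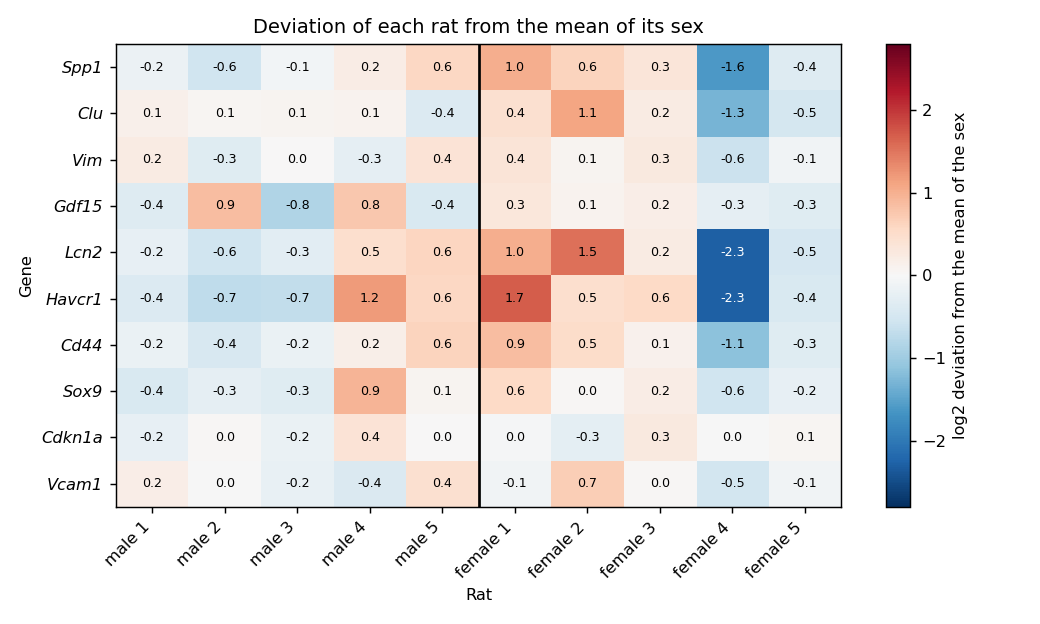
Deviation of each rat from the mean of its own sex, in log2(FPKM + 0.1), for the 10 genes, with 1 column per rat and the value printed in each cell. Female 4 is below its sex mean for all 10 genes and female 3 at or above its sex mean for all 10.

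The spread between rats of 1 sex was larger than for most genes of the table, *Cdkn1a* excepted. Over the 13363 genes averaging 1 FPKM or more, the median SD within sex was 0.22 on the log2 scale. It was 1.21 for *Havcr1*, 1.11 for *Lcn2*, 0.79 for *Spp1* and 0.67 for *Clu*, above the SD of 97.7%, 97.4%, 95.5% and 93.9% of those genes. *Cd44*, *Gdf15*, *Sox9*, *Vcam1* and *Vim* had SDs of 0.62, 0.58, 0.50, 0.39 and 0.35, all above the median, and *Cdkn1a* was at the median with 0.22. Female 4 took part in this spread. The highest female was 16.3-fold above the lowest for *Havcr1* and 14.4-fold for *Lcn2*, and 4.38-fold and 4.04-fold without female 4. For *Spp1* the corresponding range was 6.14-fold and 2.62-fold.

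Pairs of genes were then compared across rats after removal of the sex mean, to ask which genes varied together apart from any difference between the sexes. Of 45 pairs, 38 had a positive Pearson correlation, and the median r was 0.583. An exact permutation of rats within each sex allows 14400 pairings and a smallest p of 6.94e-05. After Benjamini-Hochberg adjustment over the 45 pairs, 8 passed by Pearson and 7 by Spearman correlation.

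*Havcr1*, *Lcn2*, *Spp1* and *Cd44* formed a set in which all 6 pairs passed, with r from 0.889 to 0.986 and adjusted p from 0.00313 to 0.0272 (exact permutation test). The closest pair was *Spp1* with *Cd44*, a ligand and its receptor (r = 0.986, rho = 0.976, exact permutation p = 6.94e-05, adjusted p = 0.00313), and r was 0.984 without female 4. The ratio of *Spp1* to *Cd44* FPKM was between 286 and 332 in males. It was between 367 and 436 in 4 females and 279 in female 4, so the ratio varied less among rats than either gene did. *Lcn2* correlated with *Cd44* (r = 0.944, rho = 0.952, exact permutation p = 0.000972) and with *Spp1* (r = 0.957, rho = 0.964, exact permutation p = 0.00104), with an adjusted p of 0.00990 each. The 2 remaining pairs that passed joined *Havcr1* to *Sox9* (r = 0.870, rho = 0.891, exact permutation p = 0.000694, adjusted p = 0.00990) and *Spp1* to *Vim* (r = 0.832, rho = 0.794, exact permutation p = 0.00715, adjusted p = 0.0402). *Spp1* with *Vim* did not pass by Spearman correlation (adjusted p = 0.0570, exact permutation test). Without the 2 rats farthest from the median of the first gene, r of the 8 pairs was between 0.604 and 0.976.

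These correlations lean on female 4 to differing degrees. Without it, r rose from 0.870 to 0.907 for *Havcr1* with *Sox9*. The r fell to 0.885 for *Lcn2* with *Cd44*, to 0.727 for *Havcr1* with *Lcn2* and to 0.645 for *Spp1* with *Vim*. Only *Spp1* with *Cd44* still passed the adjustment without female 4, in a test with 9 rats. *Spp1* with *Cd44* passed in all 10 cases of leaving out 1 rat, and *Spp1* with *Vim* in 2. The other pairs that passed with all rats did so in 6 to 9 cases. *Cdkn1a* had r between -0.485 and 0.621 with the other genes (lowest adjusted p = 0.217, exact permutation test), and *Gdf15* between -0.247 and 0.583 (lowest adjusted p = 0.224, exact permutation test), so none of their pairs passed with all rats. With 1 rat left out, *Gdf15* passed with *Havcr1* in 1 of 10 cases and with *Sox9* in 1, where r ranged from 0.342 to 0.892 over the cases.

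**Figure D4:**
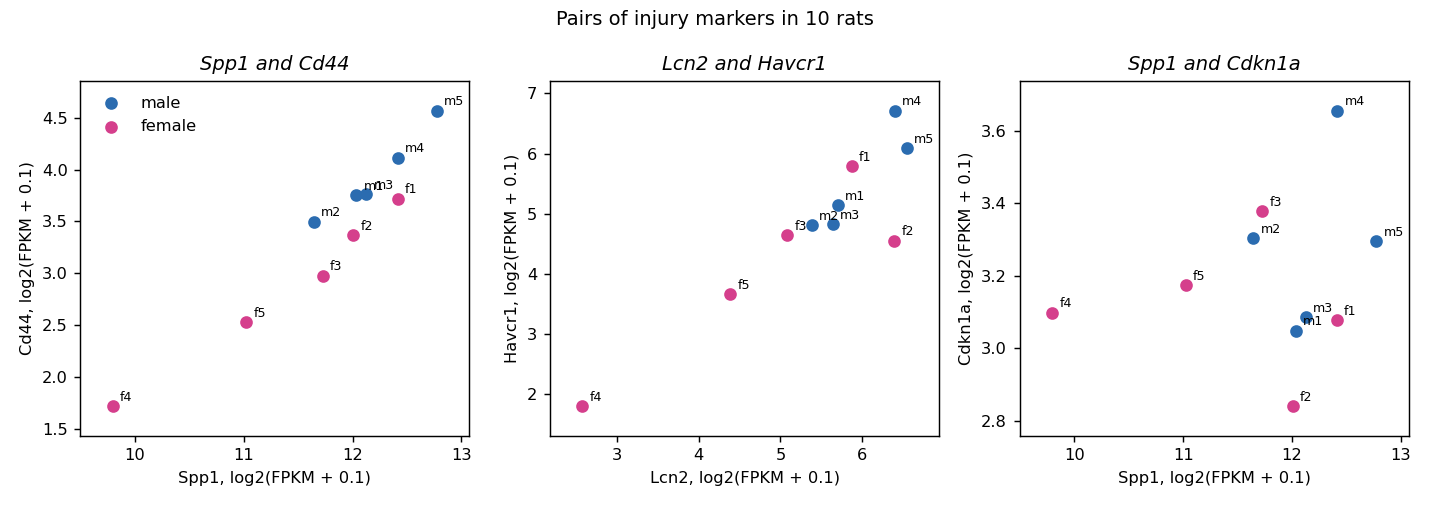
Levels in log2(FPKM + 0.1) of *Spp1* against *Cd44*, *Lcn2* against *Havcr1* and *Spp1* against *Cdkn1a*, with 1 point per rat labelled by sex and number, before removal of the sex mean. For *Spp1* and *Cd44* the rats of each sex lie along a line with female 4 at its lower end, and *Cdkn1a* shows no such line.

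The promoters of the genes that varied together are shown so that their sequence can be set beside this pattern. RefSeq annotation of the rat build GRCr8 gave a window for 8 of the 10 genes, and the 250 bases before the annotated start are printed in transcript direction. *Havcr1* lies at chr10:31629528-31629777 on the plus strand, *Lcn2* at chr3:36081781-36082030, *Spp1* at chr14:5619805-5620054 and *Cd44* at chr3:109699425-109699674, these 3 on the minus strand. *Vcam1*, at chr2:206742784-206743033 on the minus strand, is added because its window holds a match to the NF-kB motif. Capitals mark matches to any of 4 motifs searched on both strands.
Havcr1: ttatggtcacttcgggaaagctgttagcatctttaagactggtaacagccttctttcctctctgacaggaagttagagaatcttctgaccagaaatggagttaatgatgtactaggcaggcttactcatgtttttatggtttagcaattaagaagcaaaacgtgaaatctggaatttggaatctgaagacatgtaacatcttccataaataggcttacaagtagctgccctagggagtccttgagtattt
Lcn2: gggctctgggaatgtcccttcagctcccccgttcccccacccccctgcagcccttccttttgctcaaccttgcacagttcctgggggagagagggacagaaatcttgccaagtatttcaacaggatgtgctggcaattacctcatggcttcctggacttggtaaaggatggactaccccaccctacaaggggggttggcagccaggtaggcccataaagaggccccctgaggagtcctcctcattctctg
Spp1: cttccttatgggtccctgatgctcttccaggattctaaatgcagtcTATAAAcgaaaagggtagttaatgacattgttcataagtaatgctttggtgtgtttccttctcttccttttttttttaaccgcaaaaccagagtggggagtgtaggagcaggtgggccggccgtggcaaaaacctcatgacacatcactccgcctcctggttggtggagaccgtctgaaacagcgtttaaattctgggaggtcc
Cd44: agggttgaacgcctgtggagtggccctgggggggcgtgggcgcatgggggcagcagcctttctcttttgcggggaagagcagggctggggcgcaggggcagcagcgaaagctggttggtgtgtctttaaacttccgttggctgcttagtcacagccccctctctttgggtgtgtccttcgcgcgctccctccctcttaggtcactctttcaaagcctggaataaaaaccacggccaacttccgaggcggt
Vcam1: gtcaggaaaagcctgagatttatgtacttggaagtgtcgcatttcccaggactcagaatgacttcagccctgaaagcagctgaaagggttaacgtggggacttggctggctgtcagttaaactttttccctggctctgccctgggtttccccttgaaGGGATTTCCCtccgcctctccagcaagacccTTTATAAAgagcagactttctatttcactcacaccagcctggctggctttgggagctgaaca

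The motifs were AP-1 (TGANTCA), the kappaB motif of NF-kB, STAT (TTCNNNGAA) and the TATA box (TATAAA), which occur in 6.34%, 4.36%, 7.67% and 12.9% of 33469 rat promoter windows of the same length. The windows of *Havcr1*, *Lcn2* and *Cd44* held none of these letters, and that of *Spp1* held TATAAA 204 bases before the start. In *Vcam1*, the NF-kB letters began 93 bases before the start, and 2 overlapping TATA matches began 62 and 60 bases before it. Of the windows not printed, *Vim* had a TATA match 82 bases before the start and *Gdf15*, in 1 of its 2 windows, at 28 bases, and *Cdkn1a* had none. Apart from the TATA matches in *Vcam1*, no match overlapped another. A match describes letters and not binding.

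For each gene, the 3 genes with the most similar log2 profile over the 10 libraries were sought among 12061 genes, as a description. *Slc34a2*, a phosphate transporter, and *Meis3* tracked *Havcr1* (r = 0.970 and 0.975), and *Il19*, a cytokine of the interleukin 10 family, did so too (r = 0.962). *Lcn2* was nearest to *Itgb2*, the leukocyte integrin subunit (r = 0.982), *Timp1*, an inhibitor of metalloproteinases (r = 0.974), and *Colec12* (r = 0.973). *Spp1* was nearest to *Slc25a24* (r = 0.971), the collagen gene *Col8a1* (r = 0.970) and *Lcn2* (r = 0.967). *Cd44* was nearest to *Dok1* (r = 0.983) and *Pid1* (r = 0.980), and *Vim* to *Dok3* (r = 0.986), *Pld4* (r = 0.983) and *Ssh3* (r = 0.982). *Clu* had *Cdh3*, the gene of P-cadherin, as its nearest (r = 0.974), followed by *Sfn* (r = 0.958) and *Rbms1* (r = 0.956). *Vcam1* had *Gng2* (r = 0.979), *Dkk2* (r = 0.973) and *Fam49a* (r = 0.970).

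*Sox9* was nearest to *Mdfi* (r = 0.953, and 0.853 after removal of the sex mean), and then to *Msn* (r = 0.946) and *Tsc22d1* (r = 0.940). *Gdf15* was nearest to *Ppp1r10* (r = 0.951), *Csrnp1* (r = 0.932) and *Nfil3* (r = 0.911), the latter 2 transcription factors. *Cdkn1a* was nearest to *Banp* (r = 0.960), with *Btbd10* (r = 0.882) and *Gid8* (r = 0.875) behind. All points of these correlations share the libraries and their scaling.

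Other genes of the same biology were read from lists written for these 10 genes, and the counts refer to the limma adjusted p over all genes. Of 20 further injury biomarkers, 19 passed the filter, with 1 higher and 1 lower in females, beside 1.26% and 1.14% of all genes, and a median log2 fold change of -0.21. *Tff3*, the gene of the trefoil peptide that mucosal epithelia secrete, fell most. It ranged from 142 to 651 FPKM for males and from 29.2 to 63.2 FPKM in females, with a log2 fold change of -3.03 (SE 0.43, limma adjusted p = 0.00349). *Itgb6*, the integrin subunit that activates latent TGF-beta, rose in females, from between 25.5 and 37.8 FPKM in males to between 43.7 and 51.7 FPKM (log2 fold change 0.63, SE 0.11, limma adjusted p = 0.0117). Both calls held in 10 of 10 cases of leaving out 1 rat. The 2 most abundant genes of the list, *Igfbp7* and *Cst3*, had log2 fold changes of 0.23 and 0.22 and were not called. *Igfbp7* overlaps *Polr2b* and *Rpl39* on the opposite strand, and since the sources used here do not say if reads were assigned by strand, its value is uncertain.

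Of 19 failed repair genes measured above the filter, 18 had a lower mean log2 level in females, with a median log2 fold change of -0.37, and 10 had an unadjusted limma p under 0.05 in that direction. Over all genes tested, these shares were 51.2% and 8.07%, and genes of a list are not independent. None passed the adjustment in limma, where the lowest adjusted p was 0.0614. The keratin *Krt8* ranged from 91.2 to 132 FPKM for males and from 72.5 to 106 FPKM in females (limma adjusted p = 0.249), and *Tpm1*, a tropomyosin gene, from 83.4 to 114 and from 44.2 to 126 FPKM (limma adjusted p = 0.706). The 10 proliferation genes were all lower on average in females, with a median log2 fold change of -0.68 and an unadjusted limma p under 0.05 for 6, beside the same shares over all genes, and none passed the adjustment (lowest limma adjusted p = 0.0509). *Pcna*, the most abundant of them, had a log2 fold change of -0.02, and *Mcm2*, a replication helicase subunit, of -0.33.

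None of the 15 genes above the filter in a list of ligand and receptor partners passed the adjustment in limma. Of these, 2 had an unadjusted limma p under 0.05, 1 in each direction, beside 15.7% of all genes in either direction, and the median log2 fold change was -0.13. The integrin subunit *Itgb1*, through which osteopontin signals, was at 124 to 141 FPKM for males and 117 to 142 FPKM for females, and *Lrp2*, the endocytic receptor that takes up filtered lipocalin, at 126 to 214 and 136 to 250 FPKM. Of 19 p53 and senescence genes none passed in limma, 11 had a lower mean in females, beside 51.2% of all genes, and the median was -0.05. An unadjusted limma p under 0.05 was found for 3, all lower in females, beside 8.07% of all genes in that direction. *Gadd45a* and *Igfbp3*, its most abundant genes, had log2 fold changes of -0.26 and -0.42.

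The 14 stress response genes were split in direction, with a median log2 fold change of 0.25. By the adjusted p, 2 were higher and none lower in females, beside 1.26% and 1.14% of all genes. An unadjusted limma p under 0.05 was found for 8, beside 15.7% of all genes, and 3 of these were lower. These 3 were the early response transcription factor genes *Atf3*, *Fos* and *Jun*, with log2 fold changes of -1.09, -1.002 and -0.70 (limma adjusted p = 0.224, 0.235 and 0.171). *Chac1*, a glutathione degrading enzyme induced by ATF4, ranged from 0.371 to 0.619 FPKM for males and from 0.901 to 3.26 FPKM in females (log2 fold change 1.79, SE 0.34, limma adjusted p = 0.0193). *Asns*, asparagine synthetase and another ATF4 target, ranged from 3.80 to 5.94 and from 5.43 to 11.4 FPKM (log2 fold change 0.89, SE 0.20, limma adjusted p = 0.0471). The *Chac1* call held in 5 and the *Asns* call in 1 of 10 cases of leaving out 1 rat. *Hspa5*, the endoplasmic reticulum chaperone, ranged from 165 to 178 FPKM for males and from 188 to 339 FPKM in females (limma adjusted p = 0.126), and *Atf4* itself was not called (limma adjusted p = 0.369).

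Among 15 genes of the healthy proximal tubule, 1 passed, beside 2.4% of all genes. This was *Cubn*, the endocytic receptor cubilin, at 39.8 to 66.3 FPKM for males and 64.7 to 95.3 FPKM for females (log2 fold change 0.72, SE 0.16, limma adjusted p = 0.0467), and it held in 2 of 10 cases of leaving out 1 rat. The median of this list was -0.03. *Slc34a1* and *Miox*, an enzyme of inositol breakdown, had log2 fold changes of -0.03 and 0.11. *Miox* and *Lrp2* each contain a small RNA gene of the annotation, whose reads may be included.

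**Figure D5:**
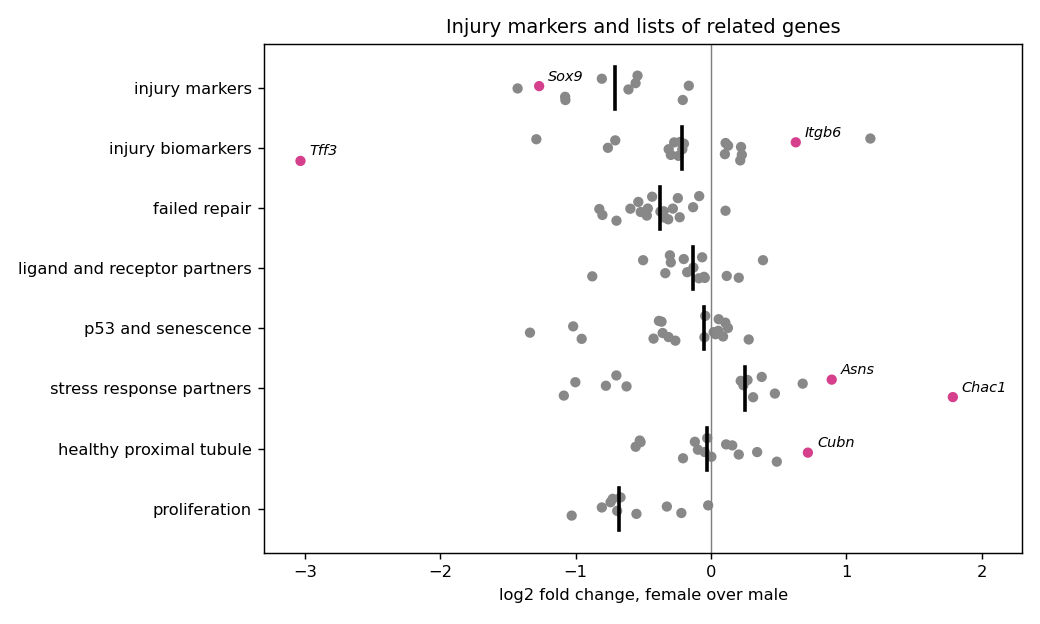
Log2 fold change of female over male on the log2(FPKM + 0.1) scale for the 10 injury markers and for each gene of 7 lists, with 1 point per gene, a black bar at each median and a grey line at 0. Coloured and named genes have a limma adjusted p of at most 0.05, and the failed repair and proliferation genes lie mostly below 0.

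Marker genes of other cell types were summed per rat. Summed over 14 macrophage genes, the level was 672 to 1405 FPKM for males and 398 to 899 FPKM for females (p = 0.214 by the exact permutation test), with *Lyz2* supplying 70.3% of it. The sum of 10 lymphocyte genes was 44.5 to 85.3 FPKM for males and 21.1 to 70.8 FPKM for females (p = 0.103 by the exact permutation test). The sum of 10 fibroblast genes was 391 to 491 FPKM for males and 135 to 451 FPKM for females (p = 0.0317 by the exact permutation test). The 6 neutrophil genes, a possible source of *Lcn2*, summed to 1.32 to 14.3 FPKM for males and 0.750 to 3.99 FPKM for females (p = 0.222 by the exact permutation test). Of these, *Csf3r* had 28 to 72 reads per library, *S100a8* 1 to 44 and *S100a9* 2 to 38, whereas the granule genes *Mpo*, *Elane* and *Camp* had at most 3, 4 and 5 reads. In all 4 lists the highest rat was male 5 and the lowest female 4. Male 5 was also the highest rat for 5 of the 10 genes, and female 4 the lowest for 8. Gene by gene, all 10 fibroblast genes were lower on average in females, with a median log2 fold change of -0.69. Of these, 6 had an unadjusted limma p under 0.05, beside 8.07% of all genes in that direction. The collagen gene *Col3a1* alone was called by the adjusted p (81.9 against 39.5 FPKM, limma adjusted p = 0.0477), beside 1.14% of all genes called lower. All 10 lymphocyte genes (median -0.65), 13 of 14 macrophage genes (median -0.46) and the 3 neutrophil genes above the filter (median -0.79) were also lower on average, beside 51.2% of all genes and the median of -0.71 of the 10 injury markers. Of these lymphocyte, macrophage and neutrophil genes, 2, 3 and 1 were lower at an unadjusted limma p under 0.05, and 0 were called by the adjusted p. The part of these cells in the levels of *Spp1*, *Cd44*, *Lcn2*, *Vcam1*, *Vim* and the other genes was not tested.

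Tubule and other lists did not share this order. The proximal tubule sum was highest in female 4 and lowest in female 2, with no difference detected between the sexes (males 2279 to 3572 FPKM, females 2235 to 3997 FPKM, p = 0.960 by the exact permutation test). Podocyte and endothelial sums had exact permutation p-values of 0.222 and 0.349. The sum of intercalated cell genes was 215 to 337 FPKM in the females against 134 to 205 FPKM, and that of distal convoluted tubule genes 314 to 546 against 205 to 332 FPKM (exact permutation test, p = 0.00794 and p = 0.0159), and thick ascending limb and principal cell sums each had an exact permutation p of 0.0556. Urothelial genes summed to 0.278 to 0.494 FPKM for males and 0.493 to 12.9 FPKM for females (p = 0.0159 by the exact permutation test), the highest in female 2. The other females were at 0.493 to 0.813 FPKM. In its lowest library each of the 6 urothelial genes had 0 to 4 reads, near the detection floor of 3 reads. After Benjamini-Hochberg adjustment over the 12 marker lists, no sum passed, in a design where a single list at the smallest possible p could not pass (lowest adjusted p = 0.0635 by the exact permutation test, and 0.0952 for fibroblasts). Gene by gene, no thick ascending limb, distal convoluted tubule, principal cell or intercalated cell gene above the filter was lower on average in females. Their median log2 fold changes were 0.35, 0.47, 0.44 and 0.58. An unadjusted limma p under 0.05 was found for 2 of 5, 3 of 3, 2 of 5 and 5 of 5, beside 15.7% of all genes. Each of these lists and the endothelial list had 1 gene called higher by the limma adjusted p, beside 1.26% of all genes.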

How the data were processed

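RNA of renal cortex was sequenced in 10 rats and grouped by the sex in the sample titles. Poly-A RNA was used, and the labels describe directional and non-directional library kits without saying which was made. The authors deposited FPKM for 32545 genes on Rnor_6.0, and the submitters' processing notes name fastp, HISAT2 2.0.5, StringTie 1.3.3b and featureCounts 1.5.0-p3. The age in the study's methods and that in the labels differ, and litter could not be used because the labels do not give it.

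Each FPKM divided by the worth of 1 read gave whole reads for 100% of values (tolerance 0.01), which supplied depth, a detection floor of 3 reads and a count-based alternative. Over the 10 markers, reads per rat ran from 92 for *Lcn2* to 170921 for *Spp1*. Floors cover counting error only.

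limma 3.58.1 in R 4.3.3 (lmFit, eBayes with trend) was run on log2(FPKM + 0.1) over 17631 genes with a mean of 0.1 FPKM or more, with Benjamini-Hochberg adjustment over all of them. Fold changes are on that scale, which understates the change of low genes. The paper's thresholds were used, and its own test on counts was not rerun. Mean FPKM of single genes were compared by exact permutation. Correlations used log2 deviations from the sex mean. Python 3.11.15 with numpy 2.4.6, pandas 2.3.3, scipy 1.17.1 and matplotlib 3.10.9 did the rest. Both tests were checked on simulated data.

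The 10 markers, the gene lists and the marker lists were chosen with earlier results of these data known. Named beside the markers are, of each list, up to 4 genes past the adjusted p by size of change and the 2 with the highest mean, for each cell type list its sum and top gene, and for each marker the 3 genes nearest in profile, of which 1 is not reported here. The 6 neutrophil genes, *Col3a1*, *Gfral*, *Atf3*, *Fos* and *Jun* were named outside this rule, after their values were seen. *Sox4*, *Nes*, *Bbc3*, *Pecam1* and *Trp63* were not matched by symbol and are not analysed here. The p-values measure the spread between these rats. The alternatives were other pseudocounts, filters, scalings, moderation settings and tools, the replicate number as a block, and each rat left out in turn.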

Additional observations from a re-analysis of the deposited data

Results flagged for a closer look

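In 20 groups of 5 rats, 1 per gene and sex, the gap of the most extreme rat to its neighbour was compared with the range of the group and set against Dixon's 95% critical value. Chance alone sets apart about 1 in 20 groups, and 2 were set apart here. For *Clu*, male 5 was the lowest male at 452 FPKM, with a ratio of 0.801. For *Sox9*, male 4 was the highest male at 27.99 FPKM, with a ratio of 0.740.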

How the results depend on the processing

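Over all genes 109 were higher and 123 lower in females, 223 and 201 by the adjusted p alone and 65 and 72 with a pseudocount of 1, and from 80 to 114 and from 88 to 146 with 1 rat left out. *Sox9* was the 1 marker called, and 0 were called with no filter on low values (limma adjusted p of *Sox9* 0.0517) or without the eBayes trend (0.0617). Leaving out 1 rat gave 0 to 1 calls. The other settings with all rats, the replicate block apart, gave adjusted p-values for *Sox9* of 0.0202 to 0.0418. Genes of the 7 lists past the adjusted p were 5, 9 with limma-voom, and 2 to 8 with 1 rat left out, with 8 without female 2. Pairs that passed were 8, 4 on FPKM, 17 without removal of the sex mean, and 1 to 12 with 1 rat left out, with 1 without female 4 and 12 without male 4. The log2 fold change of *Clu* was -0.49 to 0.11 with 1 rat left out, with 0.11 without female 4, and its difference in mean FPKM was -129.5 to 94.7, above 0 in 6 cases. The log2 fold changes of the other 9 markers kept their sign in every alternative, and without female 4 those of *Havcr1*, *Lcn2* and *Spp1* were -0.86, -0.50 and -0.41. The cause of these changes was not tested.

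With the replicate number as a block, 89 genes were higher and 87 lower in females, and 0 markers were called (*Sox9* limma adjusted p = 0.161). Same-numbered rats had correlations of -0.097 to 0.071, so the numbers gave no pairing. Reads on the 10 markers were never under 92 in a library.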
